A study of Danio rerio with 8 samples.

Results

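Lipid droplets and the uptake of fatty acids are described here through 10 genes, chosen by symbol: *cidec*, *plin2*, *pnpla2*, *dgat1a*, *dgat2*, *lpl*, *cd36*, *fabp11a*, *soat1* and *scd*. All 10 symbols were among the 22871 genes with deposited counts. RNA was sequenced from whole brains of untreated zebrafish at 4 months post-fertilization (mpf), TuAB strain, as 4 libraries of *psap* knockout (KO) fish and 4 libraries of wild-type (WT) siblings. Each library came from a pool of 3 brains, and the methods state that both sexes were used. The KO fish were homozygous for a CRISPR-Cas9 allele of *psap*, which encodes prosaposin, the precursor of the saposins that help lysosomal enzymes degrade sphingolipids. That allele is an insertion which brings in an early stop codon. Both genotypes came from matings of heterozygous parents and were housed in separate tanks after genotyping, so tank and genotype cannot be told apart. The paper describes KO fish of this age as being at the end stage of disease, small, with poor locomotion and/or cachexia. This state of the fish cannot be told apart from genotype either.

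A lipid droplet is a store of triglyceride and cholesteryl ester in a shell of phospholipid and coat proteins. Cells fill it with fatty acids that are released from lipoproteins, taken up, bound in the cytosol and esterified, and they empty it again through lipases. In brain, droplets are known mainly from glia, microglia and cells around ventricles and vessels, and foam cells are macrophages filled with cholesteryl ester droplets.

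Of the 10 genes, 9 passed the filter on low counts, *cidec* through its KO libraries alone. In *psap* KO brains 7 of these 9 were higher than in WT brains, none was lower, and 2 were not called. The higher genes were *cidec*, *plin2*, *pnpla2*, *lpl*, *fabp11a*, *soat1* and *scd*. Their libraries did not overlap between genotypes, with all 4 KO libraries above all 4 WT libraries. The exact two-sided permutation test of mean log2 CPM gave p = 0.0286 for each of these 7, the smallest value that 4 libraries against 4 allow. Levels are CPM, counts scaled to the size of each library with the TMM factors of edgeR, and a gene was called at a Benjamini-Hochberg adjusted p under 0.05 of edgeR's quasi-likelihood test over all genes tested. Among all 21140 genes tested, 22.3% were called higher and 18.5% lower (40.8% in either direction), and 21.9% had every KO library above every WT library (40.3% without overlap in either direction), so large numbers of genes differed in this comparison. The median log2 fold change of the 9 genes tested, KO over WT as throughout, was 1.48, beside 0.02 over all genes tested. Because the 10 genes were chosen with earlier results of these data known, their share and median describe them and are no test of the set. With all 8 libraries, neither edgeR with TMM scaling nor DESeq2 nor limma-voom called any of the 10 lower, and at an unadjusted p under 0.05 in edgeR 1 of them, *cd36*, lay on the lower side. Other settings of edgeR that called *cd36* or *dgat1a* lower are given beside these genes.

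**Figure D1:**
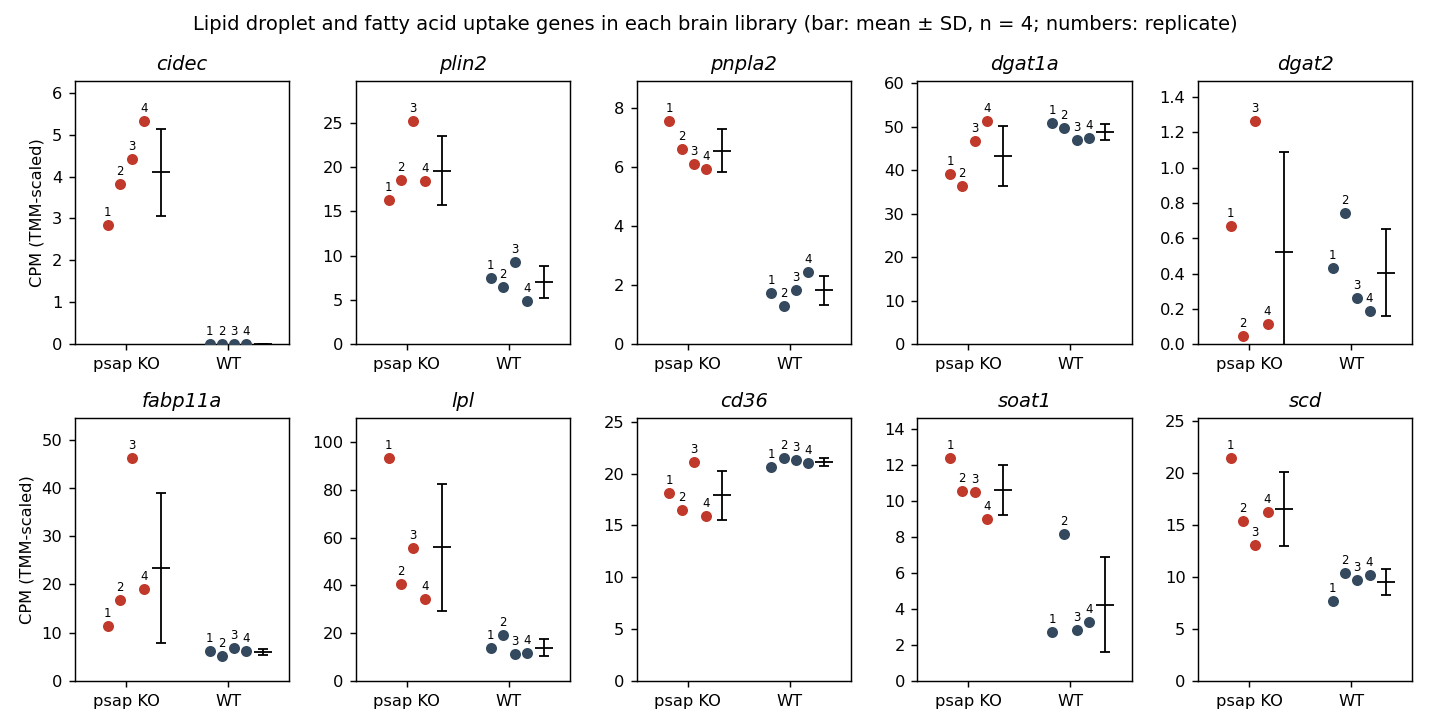
CPM of the 10 genes in each library, psap KO on the left and WT on the right of each panel, with the replicate number over each point and a bar for the mean ± SD (n = 4). The KO points lie above all WT points for 7 genes, from cidec at 2.84 to 5.32 CPM against 0 in WT to scd at 13.0 to 21.4 CPM against 7.66 to 10.4, while dgat1a, dgat2 and cd36 overlap.

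The libraries held 17562422 to 25127578 counts in KO and 15332163 to 23480758 in WT. *psap* itself overlapped between genotypes, at 412.2 ± 29.0 CPM in KO and 377.7 ± 30.6 CPM in WT brains (SD, n = 4 each; adjusted p = 0.206), and its transcript level alone does not check the genotype labels of an allele that acts through a stop codon. The inserted bases were not analysed here. KO replicate 4 differed from the other KO libraries in count composition by 17.1 to 28.8 (chi-square over its degrees of freedom), against 6.99 to 8.78 among the other KO libraries and 5.12 to 13.6 among the WT libraries. WT replicate 1 carried muscle transcripts: 18 skeletal muscle genes summed to 849 CPM there, against 83.8 to 102 CPM in WT replicates 2 to 4 and 36.1 to 62.3 CPM in KO libraries. Without KO replicate 4, and likewise without WT replicate 1, the same number of the 10 genes, 7, was called higher. The levels come from whole tissue, in which fewer cells of a type and less RNA per cell cannot be told apart. Each gene's own length was not used, so levels are compared between libraries only, not between genes.

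The coat of the droplet is represented by *cidec* and *plin2*. In mammals the protein of CIDEC lets small droplets pass lipid to larger ones, and perilipin 2 covers droplets in most cell types. *cidec* (ENSDARG00000059651, chromosome 6, 21202639 to 21212367, plus strand of the deposited annotation) was at 2.84, 3.83, 4.42 and 5.32 CPM in KO replicates 1 to 4, from 51, 87, 91 and 139 counts. It had 0 counts in each of the 4 WT libraries. With the counts of each genotype pooled, and a floor of 3 counts over the whole WT group, it was at least 108-fold higher in KO brains. No test was made of this bound. The edgeR test of the fitted log2 fold change gave an adjusted p of 2.61e-06, and the exact permutation p was 0.0286. Without WT counts, *cidec* passed the filter through its KO libraries alone, so it could be called higher but not lower. The floor corresponds to 0.0387 CPM and covers counting error only.

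*plin2* (ENSDARG00000042332, chromosome 15, 17030473 to 17048822, plus strand) was at 16.3, 18.5, 25.2 and 18.4 CPM in KO replicates 1 to 4, against 7.45, 6.41, 9.23 and 4.88 CPM in WT replicates 1 to 4. Every KO library was above the highest WT library. The means were 19.6 ± 3.85 CPM in KO and 6.99 ± 1.83 CPM in WT brains (SD, n = 4 each). Its log2 fold change was 1.48 ± 0.19 (SE; 95% interval 1.06 to 1.90; adjusted p = 9.72e-05). Unlike *cidec*, *plin2* was thus measured in all WT brains too. *plin6*, a perilipin of teleost fish, was scarce but also higher, at 0.835 to 1.15 CPM in KO and 0.264 to 0.325 CPM in WT brains (log2 fold change 1.70 ± 0.32, SE; adjusted p = 0.00116). With 4 to 7 counts in the WT libraries, it too passed the filter through its KO libraries alone. Thus *plin6* could be called higher but not lower.

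Of 18 other genes listed for the droplet coat and its formation, 9 had counts and were tested, of which 2 were higher, none was lower and 7 were not called. The higher ones were *plin6*, which could not have been called lower, and *rab18b*, a small GTPase found on droplets (log2 fold change 0.29, adjusted p = 0.0133). Neither DESeq2 nor limma-voom called any lower, and none was lower at an unadjusted p under 0.05. *fitm2*, whose mammalian homolog partitions triglyceride into droplets, averaged 13.7 CPM in KO and 11.1 CPM in WT brains (adjusted p = 0.065). *rab18a* averaged 43.4 CPM in KO and 49.8 CPM in WT brains (adjusted p = 0.123) and was called lower only without WT replicate 1 (log2 fold change -0.28, adjusted p = 0.0234). A share of 2 in 9 is close to the 22.3% of all genes that were higher.

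*pnpla2* encodes adipose triglyceride lipase, which takes the first fatty acid from stored triglyceride. The gene (ENSDARG00000089390, chromosome 25, 4541211 to 4574570, plus strand) was at 7.57, 6.64, 6.12 and 5.93 CPM in KO replicates 1 to 4, against 1.73, 1.28, 1.85 and 2.46 CPM in WT replicates 1 to 4. The KO libraries spanned 1.28-fold and lay well above the WT range. The means were 6.56 ± 0.73 CPM in KO and 1.83 ± 0.49 CPM in WT brains (SD, n = 4 each). This was a log2 fold change of 1.82 ± 0.20 (SE; 95% interval 1.39 to 2.25; adjusted p = 1.67e-05).

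The inhibitor of this lipase known from mammals, *g0s2*, was higher as well. It was at 6.96, 13.3, 28.5 and 8.07 CPM in KO replicates 1 to 4, against 2.10, 1.75, 1.54 and 1.86 CPM in WT replicates 1 to 4. Its KO libraries spread far more than those of *pnpla2*, with replicate 3 highest, but none overlapped WT (log2 fold change 2.97 ± 0.50, SE; adjusted p = 0.00194). The co-activator of the lipase was represented by *abhd5b*, named after its values were seen. It had a mean of 0.143 CPM in KO and 0.482 CPM in WT brains, from 12 and 38 counts. Every KO library lay below every WT library (exact permutation p = 0.0286). The gene was below the filter and has no adjusted p in the main fit.

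Of 10 other lipolysis genes tested, *g0s2* included, 4 rose, 1 fell and 5 were not called (all genes tested: 22.3% higher, 18.5% lower). With no filter on low counts, and with DESeq2, 2 genes of the lipolysis list were called lower. *pnpla7a* and *pnpla7b*, homologs of a mammalian lysophospholipase, had log2 fold changes of 0.49 (adjusted p = 0.00016) and 0.37 (adjusted p = 0.00213), and *pnpla4* had 0.58 (adjusted p = 0.0128). *pnpla6*, a phospholipase needed by long axons, was the gene that fell, to 98.7 ± 18.7 CPM in KO, against 138 ± 5.56 CPM in WT brains (SD, n = 4 each; log2 fold change -0.48, adjusted p = 0.00545). *pnpla3* overlapped between genotypes, at 5.29 CPM in KO and 4.62 CPM in WT brains on average (adjusted p = 0.487). The log2 fold change of *pnpla2* was the largest among the *pnpla* genes tested, without a test of that difference, and the direction within the family was mixed.

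Triglyceride is completed by the diacylglycerol acyltransferases, encoded by *dgat1a*, *dgat1b* and *dgat2*, and none of them was called different. *dgat1a* (ENSDARG00000103503, chromosome 19, 1370504 to 1393308, plus strand) was at 39.1, 36.3, 46.7 and 51.2 CPM in KO replicates 1 to 4, against 50.8, 49.8, 47.0 and 47.3 CPM in WT replicates 1 to 4. KO replicates 1 and 2 lay below the WT range, replicate 3 just under it and replicate 4 above it. The log2 fold change was -0.17 ± 0.10 (SE; 95% interval -0.39 to 0.06; adjusted p = 0.217; exact permutation p = 0.257). Without KO replicate 4 it was -0.26 with an adjusted p of 0.0332, so the absence of a call rests on that library. *dgat1b* averaged 10.1 CPM in KO and 11.6 CPM in WT brains (adjusted p = 0.305).

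*dgat2* (ENSDARG00000018846, chromosome 10, 32501961 to 32524771, minus strand) was close to the limit of detection. It had 12, 1, 26 and 3 counts in KO replicates 1 to 4, against 8, 11, 6 and 4 counts in WT replicates 1 to 4. The corresponding levels were 0.668, 0.0440, 1.26 and 0.115 CPM in KO, against 0.432, 0.742, 0.264 and 0.186 CPM in WT brains. Both the highest and the lowest library were KO libraries, and a difference was not detectable at this depth (exact permutation p = 0.886). The gene did not pass the filter and has no adjusted p in the main fit.

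Of 13 other genes of triglyceride synthesis tested, 4 were higher, none was lower and 9 were not called. Among all genes tested 22.3% were higher and 18.5% lower. Neither DESeq2 nor limma-voom called any of the 13 lower, nor did edgeR without any single library. *mogat3b*, named for this reason alone, was lower at an unadjusted p under 0.05. With a replicate term in edgeR it was called lower (log2 fold change -0.51, adjusted p = 0.0351). *gpat3*, which adds the first acyl chain to glycerol phosphate, reached 12.8 ± 0.63 CPM in KO, against 7.21 ± 1.58 CPM in WT brains (SD, n = 4 each; log2 fold change 0.82, adjusted p = 0.000788). *agpat5* and *agpat4*, which add the next chain, had log2 fold changes of 0.44 (adjusted p = 0.000513) and 0.56 (adjusted p = 0.00411). *lpin1*, a phosphatidate phosphatase, was at 255, 111, 195 and 70.1 CPM in KO replicates 1 to 4, against 52.2 to 59.4 CPM in WT brains (log2 fold change 1.48 ± 0.40, SE; adjusted p = 0.0242). Its call was lost without any single WT library and without KO replicate 3, at adjusted p from 0.0556 to 0.0635.

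Lipoprotein lipase, encoded by *lpl*, frees fatty acids from the triglyceride of lipoproteins. *lpl* (ENSDARG00000087697, chromosome 22, 15624371 to 15630421, plus strand) was at 93.4, 40.5, 55.8 and 34.1 CPM in KO replicates 1 to 4, against 13.9, 19.1, 11.3 and 11.5 CPM in WT replicates 1 to 4. The lowest KO library was above the highest WT library, and KO replicate 1 stood well above the other KO libraries. The means were 55.95 ± 26.5 CPM in KO and 13.96 ± 3.62 CPM in WT brains (SD, n = 4 each). The log2 fold change of 2.01 ± 0.36 (SE; 95% interval 1.17 to 2.85; adjusted p = 0.00331) was 1.65 without KO replicate 1 (adjusted p = 0.000526).

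The scavenger receptor *cd36*, known in mammals as a carrier of long-chain fatty acids into cells, was not called. *cd36* (ENSDARG00000032639, chromosome 4, 22658472 to 22671469, minus strand) was at 18.1, 16.5, 21.1 and 15.9 CPM in KO replicates 1 to 4, against 20.6, 21.5, 21.3 and 21.0 CPM in WT replicates 1 to 4. KO replicates 1, 2 and 4 lay below all WT libraries and KO replicate 3 lay among them. The log2 fold change was -0.24 ± 0.097 (SE; 95% interval -0.45 to -0.03), and the adjusted p of 0.0678 missed the threshold (exact permutation p = 0.0857). It passed with the size factors of DESeq2 in edgeR (log2 fold change -0.26, adjusted p = 0.0486) and without KO replicate 3 (-0.33, adjusted p = 0.0157). The genes with the most similar pattern over the 8 libraries, by the root mean square difference of log2 CPM centred on WT, were *tsc22d3* (0.0418), *ano8a* (0.0577) and *hhip* (0.0624). They were not called in the main fit either (adjusted p = 0.0614, 0.0556 and 0.052 in edgeR). This measure is small between any genes that change little, so it shows no link between them and *cd36*.

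Of 21 other genes of lipoprotein lipolysis and fatty acid uptake tested, 9 rose, 3 fell and 9 were not called (all genes tested: 22.3% higher, 18.5% lower). Only 1 gene of the list was called lower with upper-quartile scaling, and likewise without WT replicate 1 or without KO replicate 2. *lipg*, which encodes endothelial lipase, reached 21.6 ± 4.06 CPM in KO, against 9.53 ± 1.2 CPM in WT brains (SD, n = 4 each; log2 fold change 1.19, adjusted p = 3.65e-05). *scarb2c* and *scarb1*, listed here as genes of the scavenger receptor family of *cd36*, had log2 fold changes of 0.92 (adjusted p = 2.32e-05) and 0.56 (adjusted p = 0.0048). Their part in fatty acid uptake was not tested. *lrp1bb*, a lipoprotein receptor gene, fell by 0.31 on the log2 scale (adjusted p = 0.00485). *angptl4*, an inhibitor of lipoprotein lipase that was named after its values were seen, was at 33.4, 87.3, 115 and 43.8 CPM in KO replicates 1 to 4, against 35.9, 19.5, 21.0 and 28.4 CPM in WT replicates 1 to 4. KO replicate 1 was below WT replicate 1, and the call (log2 fold change 1.42, adjusted p = 0.0437) was lost without any single WT library, without KO replicate 2 and without KO replicate 3, at adjusted p from 0.0524 to 0.104.

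Inside the cell, fatty acids are carried by binding proteins. *fabp11a*, a fish gene related to mammalian FABP4 (ENSDARG00000017299, chromosome 19, 32166702 to 32169161, plus strand), was at 11.5, 16.8, 46.2 and 19.1 CPM in KO replicates 1 to 4, against 6.10, 5.19, 6.73 and 6.23 CPM in WT replicates 1 to 4. All KO libraries were above the WT libraries, which lay within 1.30-fold of each other, whereas the KO libraries spanned 4.03-fold with replicate 3 highest. The means were 23.4 ± 15.5 CPM in KO and 6.06 ± 0.64 CPM in WT brains (SD, n = 4 each). The log2 fold change of 1.94 ± 0.45 (SE; 95% interval 0.90 to 2.98; adjusted p = 0.0105) was 1.38 without KO replicate 3 (adjusted p = 0.000114).

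The related *fabp11b* lay on the other side, at 0.779, 0.440, 0.340 and 0.612 CPM in KO replicates 1 to 4, against 1.83, 0.472, 1.32 and 2.56 CPM in WT replicates 1 to 4. The genotypes overlapped through WT replicate 2. Its log2 fold change was -1.53 ± 0.45 (SE; adjusted p = 0.0166), and the call was lost without KO replicate 3 (adjusted p = 0.0502) and without WT replicate 4 (adjusted p = 0.066).

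Of 13 other binding protein genes tested, *fabp11b* was the only one called lower, 4 were higher and 8 were not called. For comparison, 22.3% of all genes tested were higher and 18.5% lower. The higher ones were *fabp3* (log2 fold change 0.65, adjusted p = 0.00037), the brain type genes *fabp7a* (0.46, adjusted p = 0.0049) and *fabp7b* (0.61, adjusted p = 0.00527), and *dbi*, which encodes acyl-CoA binding protein (0.45, adjusted p = 0.0108). *fabp2* averaged 11.03 CPM in KO and 7.67 CPM in WT brains and *fabp10b* 0.831 CPM in KO and 1.35 CPM in WT brains, neither past the test (adjusted p = 0.143 and 0.194).

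**Figure D2:**
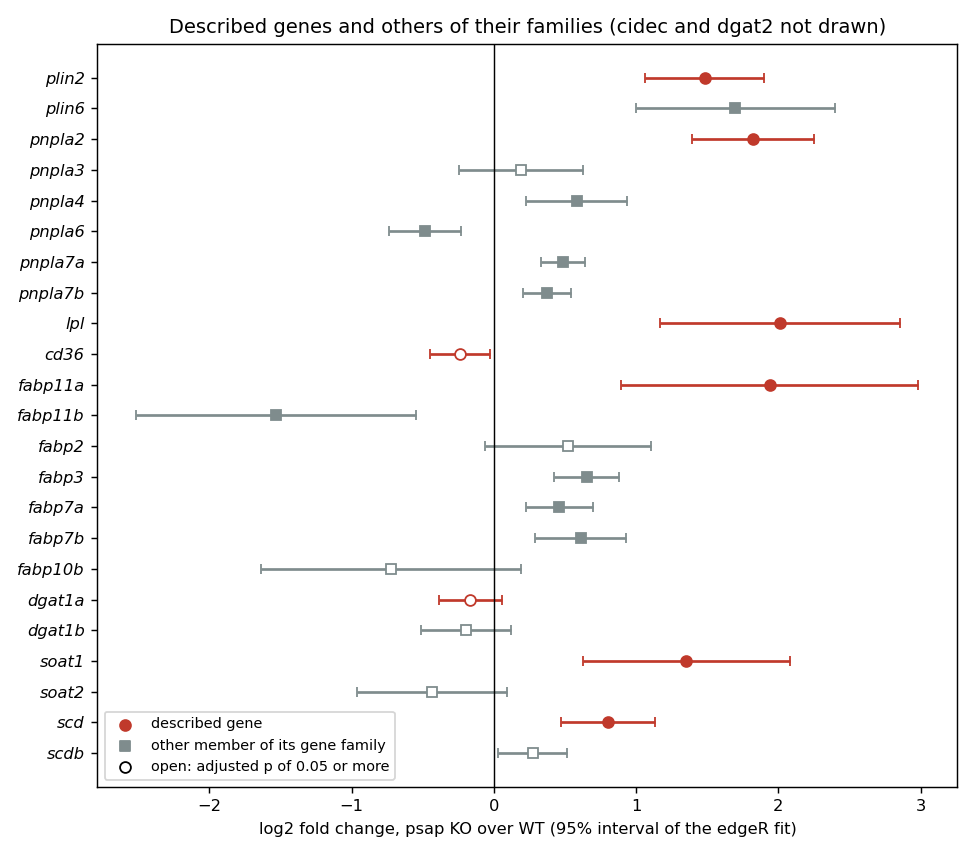
Log2 fold change, psap KO over WT, with its 95% interval in the edgeR fit, for 8 of the 10 genes (red circles) and for other genes of their families (grey squares); open symbols have an adjusted p of 0.05 or more. Circles and squares sit together for plin2 and plin6 (1.48 and 1.70) and for dgat1a and dgat1b (-0.17 and -0.20), and on opposite sides of 0 for fabp11a and fabp11b (1.94 and -1.53). plin6 passed the filter on low counts through its KO libraries alone.

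Sterol O-acyltransferase, encoded by *soat1*, makes the cholesteryl ester of droplets. *soat1* (ENSDARG00000062297, chromosome 8, 14886452 to 14910223, plus strand) was at 12.4, 10.6, 10.5 and 9.03 CPM in KO replicates 1 to 4, against 2.70, 8.16, 2.81 and 3.30 CPM in WT replicates 1 to 4. The groups did not overlap, but WT replicate 2 was close to the KO libraries and far from the other WT libraries. The means were 10.6 ± 1.38 CPM in KO and 4.24 ± 2.63 CPM in WT brains (SD, n = 4 each). The log2 fold change of 1.35 ± 0.32 (SE; 95% interval 0.63 to 2.08; adjusted p = 0.00778) was 1.85 without WT replicate 2 (adjusted p = 8.96e-06). *soat2* averaged 2.46 CPM in KO and 3.32 CPM in WT brains, with overlapping libraries (log2 fold change -0.43, adjusted p = 0.174).

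Of 11 other genes of cholesteryl ester synthesis and sterol export, 5 rose, 3 fell and 3 were not called (all genes tested: 22.3% higher, 18.5% lower). *abca1b*, a cholesterol exporter of the plasma membrane, reached 102 ± 10.7 CPM in KO, against 34.4 ± 4.32 CPM in WT brains (SD, n = 4 each; log2 fold change 1.56, adjusted p = 3.05e-07). The genes of the lysosomal cholesterol exit pathway, *npc1* and *npc2*, had log2 fold changes of 0.80 (adjusted p = 3.36e-06) and 1.95 (adjusted p = 3.91e-05). *abcg4b*, a sterol transporter gene, fell to 3.95 ± 0.83 CPM in KO, against 12.4 ± 2.08 CPM in WT brains (SD, n = 4 each; log2 fold change -1.64, adjusted p = 1.21e-05). Named after their values were seen, *abca1a* and *abcg4a* had log2 fold changes of 0.84 (adjusted p = 0.0165) and -0.52 (adjusted p = 9.67e-05).

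Stearoyl-CoA desaturase, encoded by *scd*, makes monounsaturated fatty acids, which are preferred for storage. *scd* (ENSDARG00000033662, chromosome 12, 48390715 to 48404672, plus strand) was at 21.4, 15.4, 13.0 and 16.2 CPM in KO replicates 1 to 4, against 7.66, 10.4, 9.67 and 10.1 CPM in WT replicates 1 to 4. The groups did not overlap, although the difference was the smallest among the 7 genes called. The means were 16.5 ± 3.54 CPM in KO and 9.46 ± 1.24 CPM in WT brains (SD, n = 4 each). The difference on the log2 scale was 0.80 ± 0.15 (SE; 95% interval 0.47 to 1.13; adjusted p = 0.0012). Its paralog *scdb* was at 432 to 614 CPM in KO and 389 to 491 CPM in WT brains, and did not pass the test (log2 fold change 0.27, adjusted p = 0.0674).

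Of 18 other genes of fatty acid desaturation and synthesis, 3 rose, 3 fell and 12 were not called. These shares are close to the 22.3% higher and 18.5% lower of all genes tested. *acacb*, a carboxylase whose product malonyl-CoA restrains the entry of fatty acids into mitochondria, had a log2 fold change of 0.95 (adjusted p = 5.88e-05). The dihydroceramide desaturase gene *degs1* had 0.44 (adjusted p = 0.00111) and the elongase gene *elovl1b* 0.78 (adjusted p = 0.00248). *fads2*, which desaturates polyunsaturated fatty acids, fell to 52.3 ± 12.8 CPM in KO, against 102 ± 17.4 CPM in WT brains (SD, n = 4 each; log2 fold change -0.96, adjusted p = 0.00211).

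The difference between a gene and its closest relative was tested in 5 pairs that were chosen after the values were seen, as the log2 ratio of their CPM in each library with 0.1 CPM added to both. The ratio of *fabp11a* to *fabp11b* was higher in KO than in WT brains by 2.94 on the log2 scale and that of *soat1* to *soat2* by 1.89, each without overlap between genotypes (exact two-sided permutation p = 0.0286 each, 0.0714 adjusted over the 5 pairs). The *scd* to *scdb* ratio differed by 0.52 (exact permutation p = 0.0571, adjusted 0.0952). For *plin2* to *plin6* and *dgat1a* to *dgat1b* the differences were 0.06 and 0.03 (exact permutation p = 0.886 and 0.943). None of the 5 passed an adjusted p of 0.05, which 5 tests of 4 libraries against 4 can reach only if most of them give the smallest p.

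The 7 genes that were higher did not share an order among the KO libraries. KO replicate 1 was the highest KO library for *lpl*, *pnpla2*, *soat1* and *scd*, KO replicate 3 for *plin2*, *fabp11a*, *cd36* and *dgat2*, and KO replicate 4 for *cidec* and *dgat1a*. *lpl* in KO replicate 1 was at 1.67 times its KO mean, where *fabp11a* was at 0.490 times its own. In KO replicate 3 *fabp11a* was at 1.98 times its mean and *lpl* at 0.998 times. The coefficient of variation among KO libraries was 66.4% for *fabp11a* and 47.4% for *lpl*, but 11.2% for *pnpla2* and 13.0% for *soat1*.

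**Figure D3:**
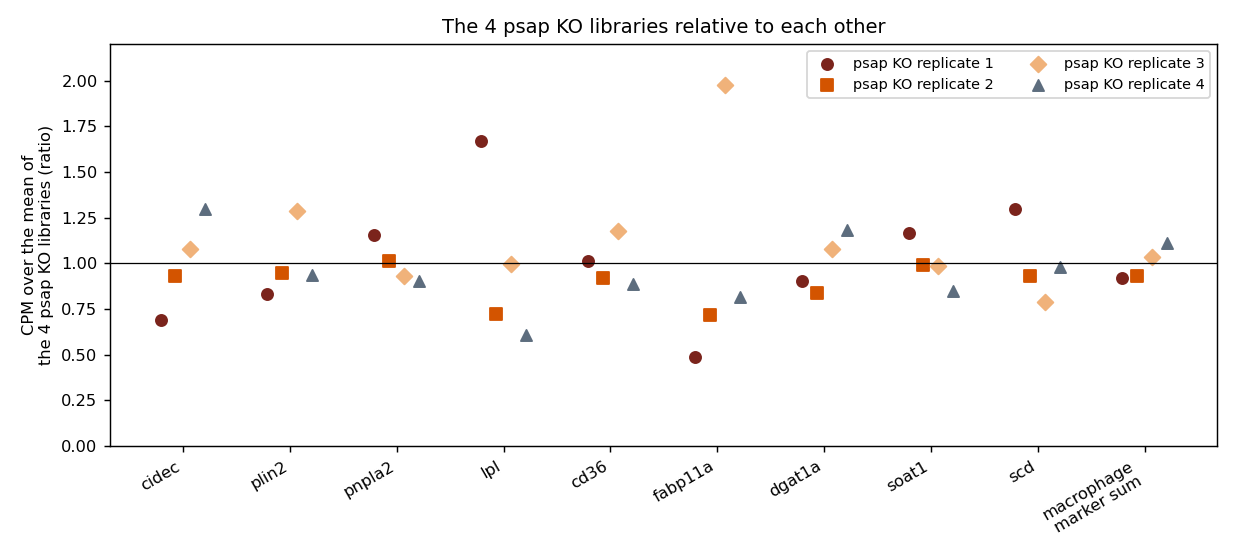
CPM of 9 of the genes in each psap KO library as a ratio to the gene's mean over the 4 KO libraries, with the sum of the macrophage markers at the right (dgat2 is left out for its few counts). The points spread most for fabp11a, highest in replicate 3 at 1.98, and lpl, highest in replicate 1 at 1.67, while the macrophage sum spreads less, from 0.922 in replicate 1 to 1.11 in replicate 4.

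Markers of microglia and macrophages were also higher in KO brains. Of 27 such markers tested, 25 were higher in KO brains (all genes tested: 22.3% higher, 18.5% lower). None was lower, also at an unadjusted p under 0.05 in edgeR, and the median log2 fold change was 2.38. Over 28 markers with counts, the summed level was 3111 to 3762 CPM in KO and 617 to 758 CPM in WT brains, a ratio of the means of 5, and no marker was at 0 in all libraries. Among the KO libraries this sum was lowest in replicates 1 and 2, which were nearly equal at 3111 and 3135 CPM, and highest in replicate 4. Of the 10 genes, *cidec* and *dgat1a* were also highest in KO replicate 4, and *cidec* alone had the order of the sum over the KO libraries. Among the first 3 markers of the list, *mpeg1.1* had this order too, at 48.9, 52.4, 64.1 and 74.7 CPM in KO replicates 1 to 4. The others, *mpeg1.2* and *csf1ra*, did not. *lpl*, *pnpla2*, *soat1* and *scd* were highest in KO replicate 1. With 4 libraries a shared order can arise by chance, and the match of orders was not tested. Without *apoeb*, the most abundant marker, the sum of the other 27 was 1766 CPM in KO replicate 1 and 1747 CPM in KO replicate 2, so the order of these libraries rests on that gene. The genes with a pattern most like that of *cidec* over the 8 libraries were *cd83*, an immune cell surface protein (root mean square difference 0.333), the unnamed *si:ch211-217k17.11* (0.377) and *gpnmb*, a glycoprotein of lipid-laden macrophages (0.459). *cidec* was taken as the largest rise, so this measure picks genes with a rise of similar size. It shows no link between them and *cidec*. *cd83* and *si:ch211-217k17.11*, with 4 and 20 counts over the WT libraries, passed the filter through their KO libraries alone. None of the genes of like pattern had the order of *cidec* among the KO libraries. In KO replicates 1 to 4 *cd83* was at 5.95, 7.03, 5.54 and 7.04 CPM, and *gpnmb* at 30.4, 67.0, 37.8 and 71.9 CPM. The part of macrophage numbers in the levels of the 10 genes was not tested.

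Markers of fat tissue were scarce. None of 5 adipocyte markers tested was called in either direction by edgeR with all 8 libraries, with 1, *lepa*, higher at an unadjusted p under 0.05. Without KO replicate 4 *lepa* was called higher (log2 fold change 1.14, adjusted p = 0.0464 in edgeR). Without WT replicate 2, 1 marker was called lower. The summed level of 7 markers was 8.79 to 9.61 CPM in KO and 8.46 to 9.63 CPM in WT brains. *adipoqa*, which encodes adiponectin, averaged 0.316 CPM in KO and 0.581 CPM in WT brains, and *adrb3b*, a beta-adrenergic receptor gene named after its values were seen, had 31 counts over the KO libraries and 5 over the WT libraries (0.346 and 0.0593 CPM on average, without overlap). Both were below the filter and were not tested.

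Of the cells that line vessels, 8 of 16 endothelial markers were higher and none was lower, with a summed level of 478 to 554 CPM in KO and 375 to 415 CPM in WT brains. Mural and perivascular markers had 3 of 11 higher and none lower (397 to 442 CPM in KO, 348 to 369 CPM in WT). In neither list was a marker lower at an unadjusted p under 0.05 with all libraries. Without KO replicate 1, 1 endothelial marker was called lower, and without KO replicate 4, 1 mural or perivascular marker was. The mural list had a median log2 fold change of 0.04, and of all genes tested 22.3% were higher and 18.5% lower. For radial astroglia 9 of 16 were higher and 1 lower (5426 to 6500 CPM in KO, 4058 to 4730 CPM in WT), and for oligodendrocytes 6 of 14 were higher and 2 lower (2811 to 5058 CPM in KO, 7587 to 9465 CPM in WT). This lower sum came from the myelin basic protein gene *mbpa*, at 993 to 1629 CPM in KO and 5581 to 6941 CPM in WT brains, and the other 13 oligodendrocyte markers summed to 1818 to 3429 CPM in KO and 2006 to 2524 CPM in WT brains and overlapped. Neurons had 1 of 21 markers higher and 18 lower (5635 to 5994 CPM in KO, 8339 to 8747 CPM in WT). All 7 erythrocyte markers were lower (110 to 187 CPM in KO, 266 to 501 CPM in WT), and 1 of 15 muscle markers was. Of the genes above, *fabp7a* and *fabp7b* are also on the astroglial list. The part of these cell types in the levels of the 10 genes was not tested.

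Of the genes that act after uptake, those for fatty acid oxidation had the largest share of higher genes among the 10 lists of roles. In mitochondrial and peroxisomal oxidation 21 of 33 genes tested were higher, none was lower and 12 were not called (all genes tested: 22.3% higher, 18.5% lower). The median log2 fold change of the list was 0.38. No gene of this list was lower by DESeq2 or limma-voom, nor at an unadjusted p under 0.05 in edgeR. *cpt1b*, which encodes the carnitine palmitoyltransferase that admits long-chain fatty acids to mitochondria, was at 8.23, 14.2, 14.9 and 11.5 CPM in KO replicates 1 to 4, against 2.70, 1.96, 2.46 and 3.21 CPM in WT replicates 1 to 4. All KO libraries were above WT (log2 fold change 2.23 ± 0.21, SE; adjusted p = 4.99e-06). A further carnitine palmitoyltransferase gene, *cpt1ab*, named after its values were seen, had 1.06 (adjusted p = 0.00268). Smaller differences were measured for *acadvl* (log2 fold change 0.58, adjusted p = 5.89e-05) and *hadhb* (0.71, adjusted p = 0.00103) of mitochondrial β-oxidation.

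Activation of fatty acids to acyl-CoA precedes both storage and oxidation. Of 12 genes tested, 6 rose, 1 fell and 5 were not called (all genes tested: 22.3% higher, 18.5% lower). None of this list was called lower without WT replicate 3, without KO replicate 3 or without WT replicate 4. *acsl1b* and *acsl4b*, long-chain acyl-CoA synthetases, had log2 fold changes of 1.08 (adjusted p = 5.65e-05) and 0.89 (adjusted p = 2.02e-05). *acss1*, a mitochondrial acetyl-CoA synthetase, had 1.43 (adjusted p = 3.65e-06) and *acsbg2* 0.29 (adjusted p = 0.00641).

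The list of nuclear receptors that sense lipids and their partners also held the transcription factor genes *mitfb* and *tfeb*. Of its 18 genes tested, 9 rose, 3 fell and 6 were not called (all genes tested: 22.3% higher, 18.5% lower). *pparg*, the receptor that directs fat storage in mammalian adipocytes, was at 12.6, 13.0, 16.2 and 16.7 CPM in KO replicates 1 to 4, against 2.05, 1.28, 2.37 and 1.72 CPM in WT replicates 1 to 4. The KO libraries lay far above all WT libraries (log2 fold change 2.95 ± 0.18, SE; adjusted p = 1.77e-07). The lysosomal and related transcription factor genes *mitfb* and *tfeb* had log2 fold changes of 1.70 (adjusted p = 2.61e-06) and 0.56 (adjusted p = 0.000181). *ppargc1b*, a coactivator gene of mitochondrial metabolism, fell by 0.61 on the log2 scale (adjusted p = 0.00025), and *ppargc1a*, named after its values were seen, fell by 0.74 (adjusted p = 0.00756).

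**Figure D4:**
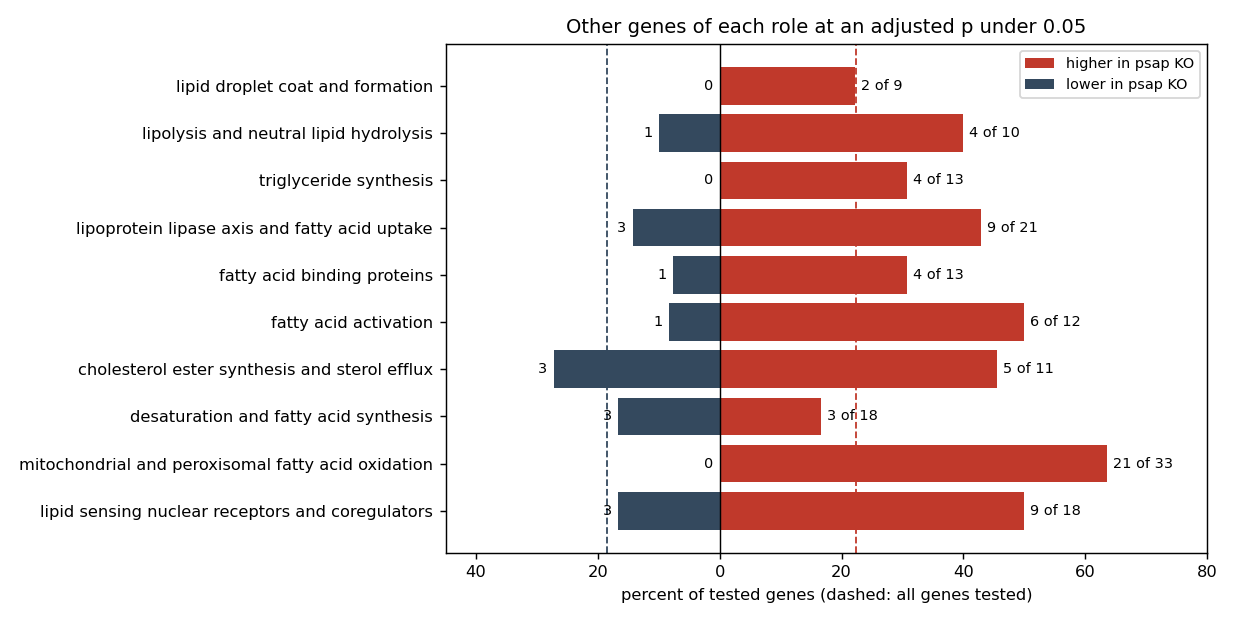
Percent of the tested genes of each role, without the 10 genes, that were called higher (red, to the right) or lower (blue, to the left) in psap KO brains, with the counts beside the bars and dashed lines at the 22.3% higher and 18.5% lower of all genes tested. Fatty acid oxidation has the longest bar to the right, 21 of 33, and droplet coat genes (2 of 9) and desaturation and synthesis genes (3 of 18) lie at or under the red dashed line.

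Over the 10 lists of roles together, without the 10 genes, 67 of 158 genes tested rose, 15 fell and 76 were not called, with a median log2 fold change of 0.24, beside 0.02 over all genes. Over all genes tested 22.3% were called higher and 18.5% lower. Because the lists too were chosen with earlier results of these data known, this comparison is a description and not a test.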

How the data were processed

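The deposited workbook holds raw read counts for 22871 genes in 8 libraries. They were made by the authors, who took out optical duplicates, used cutadapt 1.16 for adapters, STAR 2.6.1b for alignment and featureCounts 1.6.3 for counting against the Zv10 genome, with FastQC, Picard and MultiQC as checks. The strand setting of the counting, from a stranded total RNA kit, is not given in the sources used here. The deposited annotation gives gene spans and names no genome build; no annotated gene overlaps any of the 10. The authors' comparison by DESeq2 1.22.2 (fold changes, p-values) and normalized sheets were not used.

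Genotypes were compared with edgeR 4.0.16 (R 4.3.3), using TMM scaling, filterByExpr by genotype (1731 genes left out), and a robust quasi-likelihood fit and test, Benjamini-Hochberg adjusted over 21140 genes. SE was the log2 fold change over the root of F. Exact permutation tests used log2 CPM with a prior count of 2. Libraries are stated to be biological replicates, and the p-values compare the genotypes with pools of brains as the replicates. Depth limits low genes: 3 counts over the WT group were the floor. Alternatives were RLE or upper-quartile scaling in edgeR, no filter on low counts, a mean count of at least 50, DESeq2 1.42.0, limma-voom (limma 3.58.1), a replicate term, and leaving out each library. The fits were also run on simulated counts with far fewer changed genes and the same dispersion for every gene. That run does not show how they perform on these data.

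The 10 genes and the lists of roles and markers were chosen with earlier results of these data known. Genes that could be named were the 10 genes, *psap*, relatives of the 10 by symbol, in each of 10 lists of roles up to 4 genes with the smallest p, the first 3 measured markers of each of 9 cell types, and for the largest rise and fall 3 genes of like pattern (average log2 CPM of at least 1). Of the genes taken from the lists of roles, 1 is not reported here. Promoter sequences were not analysed here.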

Additional observations from a re-analysis of the deposited data

Results flagged for a closer look

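Dixon's criterion was applied at the 95% level to the CPM of 94 genes in each genotype, and 13 of 188 groups of 4 libraries had a library that stood apart. By chance 5% of groups would. Among the 10 genes this concerned *soat1* alone, at 8.16 CPM in WT replicate 2, against 2.70 to 3.30 CPM in the other WT libraries.

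WT replicate 2 was also the library apart for *abca1b* (28.0 CPM, against 35.8 to 37.3 CPM in the other WT libraries), *acadvl* (92.0 CPM, against 98.9 to 100.3 CPM), *tfeb* (13.1 CPM, others 13.9 CPM), *gfap* (85.1 CPM, against 109 to 112 CPM) and *adipoqa* (0.270 CPM, against 0.651 to 0.703 CPM). *pnpla6* was at 129.7 CPM in WT replicate 4, against 139.8 to 141.4 CPM in the other WT libraries. *npc1* was at 99.9 CPM in KO replicate 4, against 85.1 to 87.1 CPM in the other KO libraries.

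Muscle and blood genes made up the rest. *ttn.1* was at 10.5 CPM in KO replicate 1, against 5.20 to 5.93 CPM in the other KO libraries, and at 301.5 CPM in WT replicate 1, against 37.1 to 67.5 CPM in the other WT libraries. *ttn.2* was at 298 CPM in WT replicate 1, against 15.6 to 24.6 CPM in the other WT libraries. For the genes named *hbba1*, WT replicate 3 was at 195.6 CPM, against 92.3 to 105.8 CPM (ENSDARG00000089087), and at 70.7 CPM, against 41.1 to 43.3 CPM (ENSDARG00000097238).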

How the results depend on the processing

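The 7 genes called higher were called under each alternative, except that *cidec* was not tested with a mean count of at least 50, which left 6. Of the 10 genes 1 was called lower with RLE scaling, and 0 to 1 without single libraries. This was *cd36* with RLE scaling (log2 fold change -0.26), and leaving out single libraries gave -0.33 to -0.18 for *cd36* and -0.26 to -0.0891 for *dgat1a*. Over all genes the alternatives gave 4100 to 5080 higher and 3362 to 4429 lower. Libraries were not taken as pairs in the main fit. Same-numbered KO and WT libraries correlated in their deviations at 0.0575, 0.0705, 0.133 and 0.167, and differently numbered ones at -0.118 to 0.0735. KO replicate 1 correlated better with WT replicate 2 (0.0705) than with WT replicate 1 (0.0575). The methods state that samples of the genotypes were processed in turn, and a batch shared by same-numbered libraries was not tested. With the replicate block 7 of the 10 genes were called higher and 0 lower, and 4908 of all genes were higher and 4429 lower. The calls of *lpin1*, *angptl4* and *abca1a* were lost under the block (adjusted p = 0.0768, 0.193 and 0.0724 in edgeR), and *mogat3b* was called lower (0.0351). Among all values for named genes and lists, 32 lost a call, 30 gained one and 26 counts moved, *scdb* gaining a call under 5 alternatives and *fitm2* under 4.

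The markers *notch3* and *ttn.2* changed sign. *notch3* (0.01 on the log2 scale) was at -0.0079 with RLE scaling, -0.0088 with DESeq2, and -0.0447 to 0.0629 without single libraries, and *ttn.2* (-2.19) was at -2.55 to 0.0418 without single libraries, the highest without WT replicate 1. The cause was not tested. Depth limits *dgat2* most, with 42 counts over the KO libraries and 29 over the WT libraries.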
